A study of Mus musculus with 2 samples.

Results

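The genes described here are the chemokine ligands Cxcl9, Cxcl10, Cxcl11 and Cxcl16 and the receptors Cxcr3 and Cxcr6, 6 genes chosen by name out of 27998 gene rows counted per library. A row was found for 5 of the 6, and Cxcl11, annotated as a polymorphic pseudogene in the C57BL/6J reference, was not analysed here. The study compared tumour immunity in wild-type (WT) C57BL/6J mice and in CD94-KO mice of that strain, which lack CD94, the Klrd1 product, a partner chain of NKG2 receptors of NK cells and of some T cells. Each genotype had 1 droplet 3′ RNA library of live CD45+ cells, sorted with the dye 7AAD to leave out dead cells, from subcutaneous tumours of mice 6 to 8 weeks old, each library derived from 5 tumour-bearing mice. No treatment was given in the labels, and the tumour line and the design of the CD94 deletion were not given in the sources used here. With no replicate libraries nothing could be tested between genotypes, and every difference below describes this pair of libraries.

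CXCL9, CXCL10 and CXCL11 are small secreted proteins that bind CXCR3, a receptor of activated T cells and NK cells, and their genes are classic targets of interferon gamma. CXCL16 is made as a membrane-anchored protein that can be shed by the proteases ADAM10 and ADAM17, and it binds CXCR6, a receptor of tissue-resident and effector lymphocytes. In tumours, macrophages and dendritic cells are known sources of both kinds of ligand, and both receptors are used to follow lymphocyte positioning.

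In the GRCm38 annotation Cxcl9 (ENSMUSG00000029417) covers bases 92321347 to 92328079 of chromosome 5, and Cxcl10 (ENSMUSG00000034855) covers 92346638 to 92348889. Both lie on the minus strand, 18558 bases apart, with Cxcl11 beyond Cxcl10 in a cluster that spans 44139 bases. Cxcl10 sits inside Art3, a gene of the opposite strand with an exon that overlaps it, and the strand setting of the counting is not given in the sources used here. Art3 itself had 7 UMIs (unique molecular identifiers, 1 per captured RNA molecule) in all kept WT cells and 17 in all kept CD94-KO cells. Cxcl16 (ENSMUSG00000018920) covers 70453983 to 70459984 of chromosome 11, minus strand, and overlaps an exon of Zmynd15. Cxcr3 (ENSMUSG00000050232) covers 101731535 to 101734269 of chromosome X, minus strand. Cxcr6 (ENSMUSG00000048521) covers 123806475 to 123811760 of chromosome 9, plus strand, inside Fyco1 but with no exon in common.

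RefSeq promoter windows of the GRCm38.p6 build matched 4 of the 6 genes. The 250 bases before the start of Cxcl9 (chr5:92328080-92328329, minus strand) and of Cxcl10 (chr5:92348890-92349139, minus strand) are shown because these neighbouring ligands were compared side by side in the same cells. Capitals mark matches on either strand to GAAA, any 2 bases and GAAA again (the core of the interferon-stimulated response element) or to the NF-kB consensus. No pair of these matches overlaps.
Cxcl9: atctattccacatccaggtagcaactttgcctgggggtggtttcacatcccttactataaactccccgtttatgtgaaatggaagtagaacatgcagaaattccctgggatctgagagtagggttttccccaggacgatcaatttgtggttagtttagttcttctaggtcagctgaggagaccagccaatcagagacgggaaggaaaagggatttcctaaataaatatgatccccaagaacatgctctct
Cxcl10: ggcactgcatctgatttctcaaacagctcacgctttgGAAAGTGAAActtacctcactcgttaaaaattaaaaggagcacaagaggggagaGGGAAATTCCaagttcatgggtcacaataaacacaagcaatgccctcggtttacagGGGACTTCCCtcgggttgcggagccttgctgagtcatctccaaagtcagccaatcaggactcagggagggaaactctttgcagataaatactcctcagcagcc
The Cxcl10 window held 1 interferon-stimulated response element core, from base 213 to base 204 before the start, and 2 NF-kB matches, from base 159 to 150 and from base 103 to 94. The Cxcl9 window held none of these letters. Of 32851 windows of this length, 2.98% held the response element core and 3.90% the NF-kB consensus. A match describes letters only, and a missing match says nothing about binding.

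The cells used were 4388 from the WT library (36497126 UMIs in all) and 4574 from the CD94-KO library (42216839 UMIs). The median was 4751.5 UMIs per cell in WT and 7798 in CD94-KO, and 29.9% of WT cells but 7.11% of CD94-KO cells had under 1000 UMIs. Only 4 cell barcodes were shared by the kept cells of both libraries. Cells were gated on raw UMIs of fixed marker genes, and the gates are named for those genes. Although the labels call the sorted cells lymphocytes, the gate with the most cells was monocyte/macrophage, with 892 WT cells (20.3% of kept cells) and 1802 CD94-KO cells (39.4%). All T had 337 and 280 cells, NK 372 and 497, cells positive for both T and NK markers 77 and 83, cDC2 97 and 124, and mregDC (Ccr7 and Fscn1 dendritic cells) 133 and 196. The gates cDC1, pDC, neutrophil, B and stromal had under 50 cells in each library and are given only where needed. Barcodes with markers of several lineages (mixed, 434 and 406) and barcodes below every minimum (ungated, 1944 and 1065, at a median of 801.5 and 1698 UMIs) were kept apart. Markers that did not set the gates followed them: 6 macrophage genes (Lyz2, Cd68, C1qa, Csf1r, Ctss, Apoe) summed to 15133 CPM (a gene's UMIs scaled to a common UMI total of the gate) in WT and 14075 in CD94-KO macrophages, and to 531 and 512 CPM in NK cells. In the macrophages 6 T cell check genes summed to 19.5 and 11.5 CPM and 6 NK check genes to 85.6 and 69.8. Other checks separated the gates less well. The T cell check genes summed to 1351 and 913 CPM in all T, but in its IL-17 type subset (described with Cxcl10) to 329 and 336 CPM, below the 448 and 445 CPM of NK cells, and NK check genes summed there to 936 and 919 CPM. Dendritic cell check genes, MHC class II genes among them, summed to 10096 and 11361 CPM in macrophages against 10648 and 14608 CPM in mregDC. Klrd1 was 669 CPM in WT NK cells and 301 in CD94-KO NK cells (ratio 0.450 [0.418 to 0.484]), so 3′ counts of the targeted gene were lower there but present. They were also lower in all T (186 and 110 CPM) but higher in cDC2 (199 and 256 CPM, ratio 1.29 [1.07 to 1.55]) and mregDC (71.6 and 93.3 CPM, ratio 1.30 [1.04 to 1.63]). By T subset, Klrd1 was 314 and 297 CPM in CD8 T (ratio 0.945 [0.692 to 1.28]) and 254 and 172 CPM in CD4 conventional T (ratio 0.677 [0.460 to 0.984]). It was 50.3 and 6.57 CPM in Treg, 18.1 and 8.31 CPM in IL-17 type and 211 and 174 CPM in the remaining T cells. IL-17 type cells were 17.8% and 40.0% of all T, and the part of this mix in the all T values was not tested. Since the deleted part was not given, these counts do not check the label. Brackets are 95% intervals that cover counting error of UMIs only, not the spread between mice or between cells.

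By main gate, each of the 3 ligands was highest in a myeloid gate and the 2 receptors in all T, in both libraries; a T cell subset with Cxcl10 above the macrophage level is described further on. The macrophage gate held 44.9% of all Cxcl9 UMIs in WT and 64.0% in CD94-KO, 41.9% and 56.6% of Cxcl10, and 42.6% and 56.0% of Cxcl16. That gate was also 20.3% and 39.4% of the cells. Over all genes it held 9601003 of 36497126 UMIs in WT and 18787596 of 42216839 in CD94-KO. The mregDC gate held a further 10.8% and 13.0% of Cxcl16. All T held 53.7% and 60.3% of Cxcr6 and 32.8% and 26.0% of Cxcr3, and NK held 16.2% and 21.7% of Cxcr3. Mixed barcodes held from 17.2% to 34.9% of each gene's UMIs, with the 2 libraries counted apart, and they enter no gate here. Of the UMIs of all genes they held 12117839 in WT and 8329844 in CD94-KO.

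**Figure D1:**
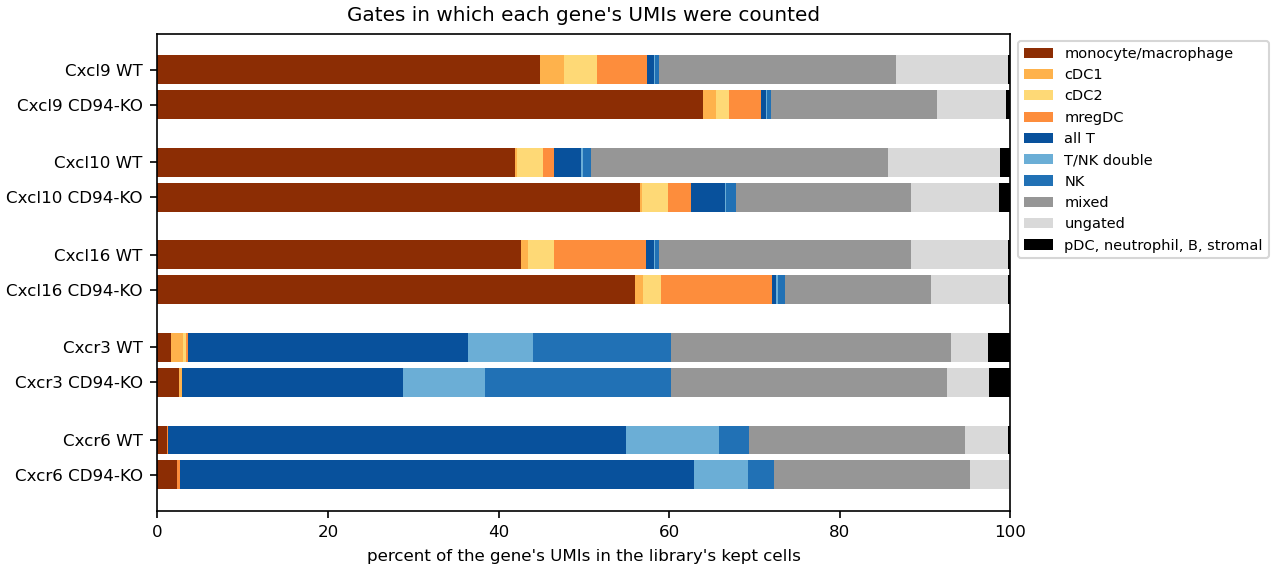
Share of each gene's UMIs (horizontal axis, percent of that gene's UMIs in the kept cells of a library) by gate (colours), for WT and CD94-KO. The macrophage gate leads for Cxcl9, Cxcl10 and Cxcl16, and all T leads for Cxcr6, while mixed barcodes hold 17.2% to 34.9%.

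Taken over the whole macrophage gate, no ligand differed by 1.5-fold between the libraries. Cxcl9 was 1014 CPM in WT and 1126 CPM in CD94-KO (ratio 1.11 [1.08 to 1.14]). Cxcl10 was 647 and 588 CPM (ratio 0.909 [0.881 to 0.938]). Cxcl16 was 388 and 384 CPM (ratio 0.990 [0.951 to 1.03]). Of the 4 members with at least 20 UMIs there, 0 passed 1.5-fold, against 9.69% of the 10971 genes measured in that gate. A UMI of Cxcl9 was seen in 52.5% of WT and 51.2% of CD94-KO macrophages at medians of 9994.5 and 9753 UMIs, against 22.8% and 19.3% of NK cells at medians of 6695 and 5807. With each cell thinned to 1000 UMIs (11 and 10 shallower macrophages and 10 and 4 NK cells left out) the macrophage shares were 25.4% and 27.0% and the NK shares 3.04% and 4.46%. Cxcl9 was unevenly spread over cells: the 10 highest macrophages held 22.2% of its macrophage UMIs in WT and 10.5% in CD94-KO. Cxcl16 was the most even ligand of the 3 there, with 7.71% and 3.99% in the 10 highest cells and a UMI in 72.3% and 71.0% of macrophages, against 12.1% and 13.1% of NK cells.

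**Figure D2:**
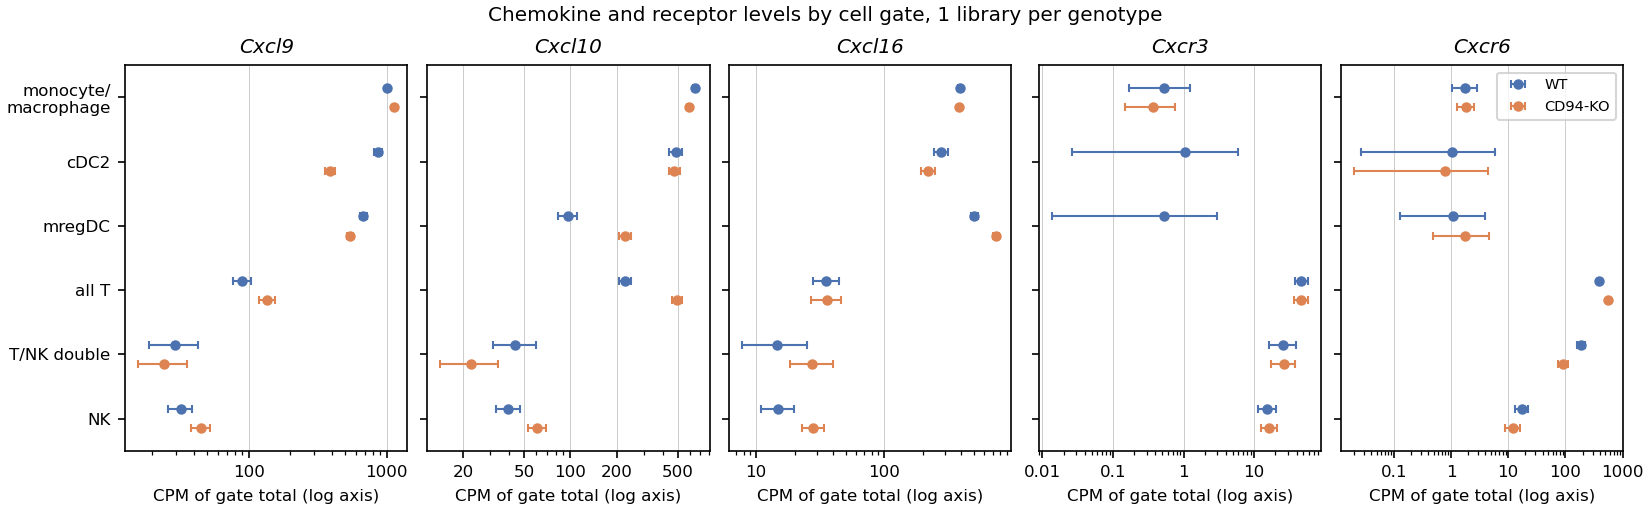
Level of each gene (horizontal log axis, CPM of the gate total, points with 95% Poisson intervals; a gate at 0 has no point) in 6 gates, for WT and CD94-KO. Cxcl9 and Cxcl16 sit highest in macrophage and dendritic gates and receptors in T cells, and Cxcl10 in T cells lies above mregDC in both libraries; Cxcl9 in macrophages is 1014 CPM in WT and 1126 CPM in CD94-KO.

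Among dendritic cells, the 3 ligands differed between the libraries in unlike directions. In cDC2, the gate set by Cd209a and Flt3, Cxcl9 was 867 CPM in WT and 389 CPM in CD94-KO (ratio 0.449 [0.401 to 0.502]). Cxcl10 was 483 and 475 CPM there (ratio 0.983 [0.869 to 1.11]), and Cxcl16 276 and 220 CPM (ratio 0.796 [0.670 to 0.945]). In mregDC, mature dendritic cells, Cxcl9 was 679 and 544 CPM (ratio 0.801 [0.740 to 0.867]) but Cxcl10 was 96.2 CPM in WT and 225 CPM in CD94-KO (ratio 2.34 [1.97 to 2.79]). Cxcl16 was higher in mregDC than in macrophages in both libraries, at 503 and 744 CPM (ratio 1.48 [1.37 to 1.60]). So 1 of 3 measured members passed 1.5-fold in cDC2, where 18.7% of all genes did, and 1 of 3 in mregDC, where 28.2% did. The 10 highest of the mregDC cells held 69.4% and 72.6% of their Cxcl10 UMIs. With mixed barcodes counted in, the mregDC ratio of Cxcl10 turned to 0.855, and with every cell weighed the same it was 1.65. The cDC2 ratio of Cxcl9 was 0.748 with gate minimums doubled and 0.841 with mixed barcodes counted in. The summed macrophage check genes were 1182 and 1443 CPM in mregDC and 3877 and 4122 in cDC2, all 6 detected in each library, and their part in these values was not tested. In cDC1, with 25 and 32 cells, Cxcl9 was 1603 and 1239 CPM.

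Macrophages were next split by Nos2, the inducible nitric oxide synthase of inflammatory macrophages, and Arg1, the arginase of wound-type and suppressive macrophages. Nos2+ means at least 2 Nos2 UMIs and Arg1+ at least 5 Arg1 UMIs. Cells negative for both were called C1q (at least 10 UMIs of C1qa, C1qb and C1qc), monocyte-like (at least 5 of Ly6c2 and Hp) or low (below every minimum). All Nos2+ cells were 9.53% [7.68 to 11.6] of WT and 17.7% [16.0 to 19.5] of CD94-KO macrophages, 85 and 319 cells. Cxcl9 was highest in the Nos2+ Arg1- state in both libraries, and the genotype difference did not have 1 direction over the states. It was 4775 CPM in 29 WT cells and 3177 CPM in 114 CD94-KO cells of that state (ratio 0.665 [0.628 to 0.705]). In Nos2+ Arg1+ cells it was 944 CPM in WT and 2099 CPM in CD94-KO (ratio 2.22 [2.08 to 2.39]). Among the more numerous Nos2- Arg1+ cells it was 849 and 489 CPM (ratio 0.576 [0.549 to 0.604]). The order of these 3 states by Cxcl9 was the same in both libraries. C1q cells had 848 and 1005 CPM, monocyte-like cells 783 and 937 CPM, and low cells 1094 and 1271 CPM, each within 1.5-fold (16.9% of genes passed it in C1q, 12.5% in monocyte-like and 16.9% in low cells). In WT the intervals of the Nos2- Arg1+ and C1q states overlapped, so their order is not resolved.

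Cxcl9 thus passed 1.5-fold in 3 of the 6 states, where 24.8% (Nos2+ Arg1-), 19.5% (Nos2+ Arg1+) and 12.8% (Nos2- Arg1+) of all measured genes passed it. These state ratios rested on few cells and on where the minimums lay. The 10 highest cells held 76.8% of the Cxcl9 UMIs of the 29 WT Nos2+ Arg1- cells and 40.1% in CD94-KO, and 70.6% and 31.0% in Nos2+ Arg1+ cells. The Nos2+ Arg1+ ratio was between 1.37 and 2.61 in the alternatives tried. The Nos2- Arg1+ ratio turned to 1.04 with all minimums doubled and to 1.43 with gating on cells thinned to 3000 UMIs. With the CD94-KO states averaged in the WT proportions of UMIs, Cxcl9 in the whole gate was 1001 CPM against 1014 in WT (ratio 0.988 in place of 1.11). Several proportions of UMIs differed. Nos2+ Arg1- cells held 3.65% in WT and 6.33% in CD94-KO, and Nos2+ Arg1+ cells 10.3% and 14.8%. Nos2- Arg1+ cells held 40.6% and 36.3%, and low cells 11.2% and 8.96%. Which of these shares went with the ratio over the gate was not tested.

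Cxcl10 was ordered differently from Cxcl9 over the same states. Monocyte-like cells had 1242 CPM in WT and 1047 CPM in CD94-KO (ratio 0.844 [0.805 to 0.885]), the highest state value in CD94-KO. Nos2+ Arg1- cells had 1115 and 568 CPM (ratio 0.509 [0.449 to 0.578]). In Nos2+ Arg1+ cells it was 316 and 506 CPM (ratio 1.60 [1.41 to 1.81]), and in Nos2- Arg1+ cells 425 and 282 CPM (ratio 0.662 [0.620 to 0.708]). By CPM, these 3 states thus had the direction that they had for Cxcl9. In Nos2+ Arg1+ cells the 10 highest held 85.3% of the Cxcl10 UMIs in WT and 60.6% in CD94-KO. A Cxcl10 UMI was in 55.4% [41.5 to 68.7] of WT and 46.3% [39.4 to 53.4] of CD94-KO cells of that state. With cells thinned to equal depth these shares were 25.0% and 17.1%, with overlapping intervals. Detection thus did not follow the CPM ratio there. C1q cells had 478 and 590 CPM (ratio 1.23 [1.11 to 1.37]) and low cells 497 and 807 CPM (ratio 1.62 [1.47 to 1.80]). Cxcl10 passed 1.5-fold in 4 of the 6 states, the low state among them. Of all measured genes, 24.8% (Nos2+ Arg1-), 19.5% (Nos2+ Arg1+), 12.8% (Nos2- Arg1+) and 16.9% (low) passed it there. In Nos2+ Arg1- cells 10 cells held 91.6% and 79.7% of the UMIs. That ratio turned to 1.5 with gates on cells thinned to 3000 UMIs and to 1.46 with lower Nos2 and Arg1 minimums, so its direction is not settled, and in the low state the ratio was 0.928 with all minimums doubled.

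Cxcl16 passed 1.5-fold in none of the 6 states. It was highest in Nos2+ Arg1- cells, at 736 CPM in WT and 872 CPM in CD94-KO (ratio 1.19 [1.03 to 1.36]). Nos2+ Arg1+ cells had 475 and 653 CPM (ratio 1.37 [1.24 to 1.52]). Nos2- Arg1+ cells had 385 and 277 CPM (ratio 0.718 [0.671 to 0.769]), and C1q cells 559 and 414 CPM (ratio 0.741 [0.665 to 0.826]). Monocyte-like cells, the highest or second highest state for Cxcl10, were the lowest for Cxcl16, at 224 and 220 CPM, and low cells had 390 and 407 CPM.

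**Figure D3:**
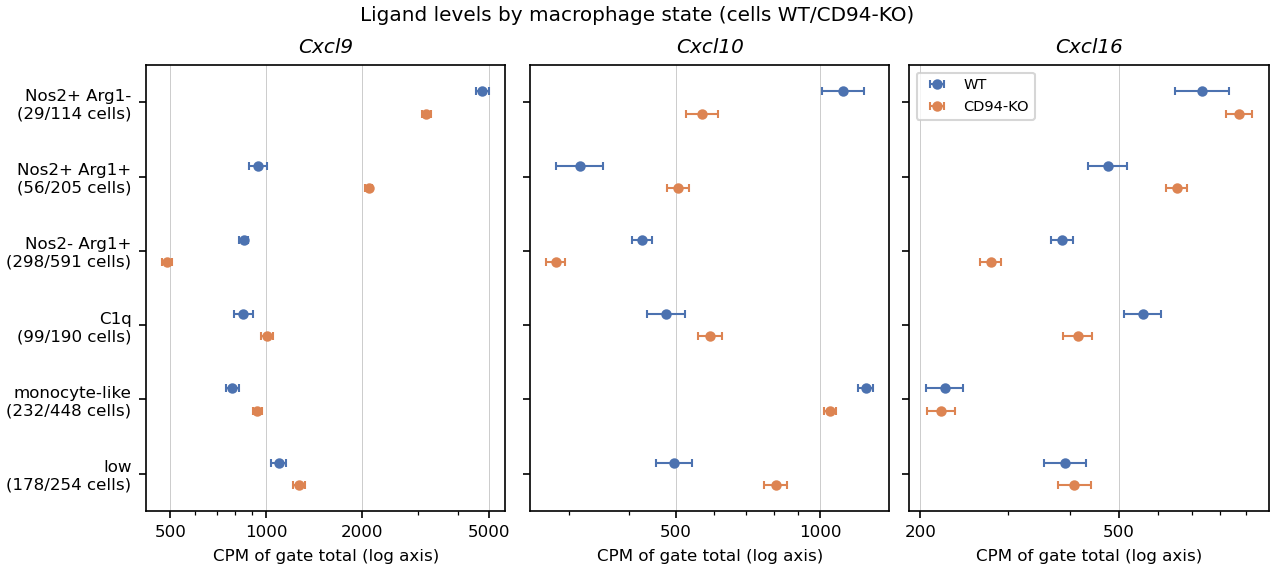
Cxcl9, Cxcl10 and Cxcl16 (horizontal log axis, CPM of the state total, points with 95% Poisson intervals) in 6 macrophage states, with WT and CD94-KO cell numbers. Cxcl9 peaks in Nos2+ Arg1- cells (4775 and 3177 CPM), Cxcl10 is high in monocyte-like cells (1242 and 1047 CPM), where Cxcl16 is lowest (224 and 220 CPM).

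Binning macrophages by Nos2 UMIs alone gave a view that did not use Arg1. In cells with 0 Nos2 UMIs, Cxcl9 was 776 CPM in WT and 708 CPM in CD94-KO (ratio 0.913 [0.884 to 0.943]). In cells with 5 or more it was 2232 CPM in 51 WT cells and 2673 CPM in 206 CD94-KO cells (ratio 1.20 [1.14 to 1.26]). Cxcl9 was thus higher in the Nos2-rich cells of both libraries. Over all cells with 2 or more Nos2 UMIs it was 1948 and 2422 CPM (ratio 1.24 [1.19 to 1.30]), in place of the opposite directions on either side of the Arg1 minimum. Cxcl10 was 526 and 525 CPM in these cells (ratio 0.998 [0.916 to 1.09]) and 700 and 559 CPM in cells with none (ratio 0.798 [0.770 to 0.826]), so it was not higher with Nos2. Cxcl16 was 544 and 719 CPM with 2 or more Nos2 UMIs (ratio 1.32 [1.22 to 1.44]) and 345 and 280 CPM with none (ratio 0.813 [0.773 to 0.854]). Cells with exactly 1 Nos2 UMI, 54 in WT and 140 in CD94-KO, had 230 and 1039 CPM of Cxcl10, with 91.1% and 77.4% of its UMIs in 10 cells.

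**Figure D4:**
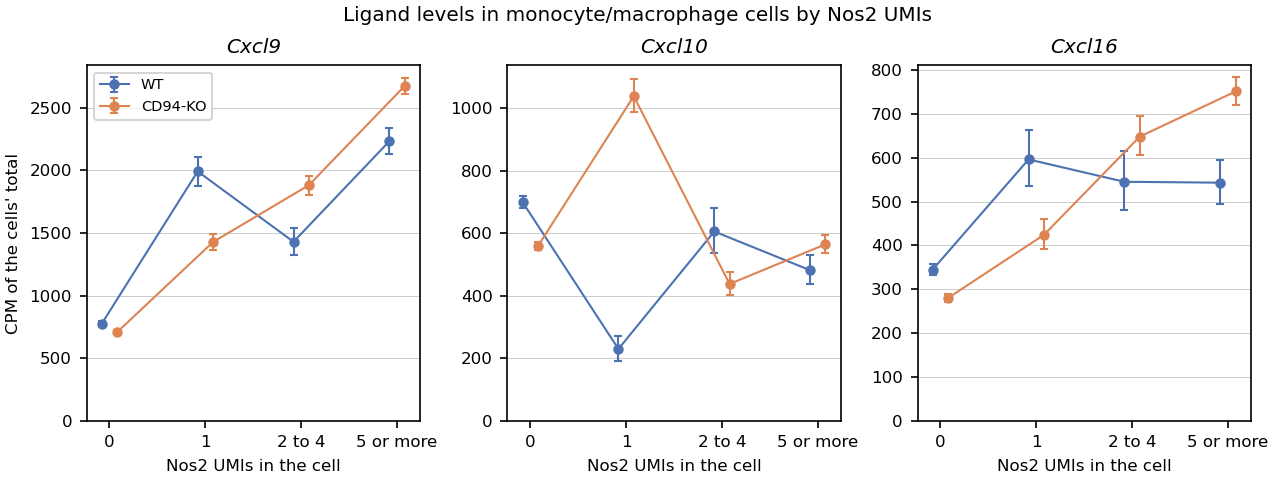
Ligand level (vertical axis from 0, CPM of the total of the cells, 95% Poisson intervals) against Nos2 UMIs per macrophage (0, 1, 2 to 4, 5 or more) in WT and CD94-KO. Cxcl9 is 776 and 708 CPM at 0 and 2232 and 2673 CPM at 5 or more; Cxcl10 shows no such order.

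Cxcl10 was detected more often in macrophages with a Cxcl9 UMI than in those without one, although most cells with either gene had only 1 of the pair detected. At 1000 UMIs per cell, Cxcl10 was detected in 29.0% of the WT macrophages with a Cxcl9 UMI and in 17.4% of those without, with both in 65 of 881 cells. In CD94-KO these shares were 24.4% and 16.7%. Cxcl16 was detected in 37.9% and 24.2% of WT macrophages with and without Cxcl9, and in 41.9% and 21.7% of CD94-KO macrophages. In CD94-KO mregDC cells, Cxcl10 was in 42.5% of the cells with Cxcl9 and in 5.19% of those without, and in WT in 18.8% and 6.00%, from 32 WT and 40 CD94-KO cells with Cxcl9. Macrophages with a Cxcl9 UMI had more UMIs in all before thinning (medians of 10559 against 9457 in WT and 10212 against 9333 in CD94-KO).

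In lymphocyte gates the ligands stood below the macrophage level of the same library, except for Cxcl10 in 1 T cell subset. In all T, Cxcl9 was 90.1 CPM in WT and 136 CPM in CD94-KO (ratio 1.51 [1.24 to 1.85]), with a UMI in 23.4% and 22.9% of cells, about the share seen in NK cells. Its ratio turned to 0.750 with each cell weighed the same. Cxcl10 in all T was 226 and 496 CPM (ratio 2.19 [1.95 to 2.46]). Unassigned T cells fell in none of the CD8, CD4 conventional, Treg or IL-17 type subsets. They can include cells with markers of several subsets. Their Cxcl9 was 224 and 339 CPM (ratio 1.51 [1.17 to 1.96]), 22.1% and 30.1% of the macrophage level, with 84.6% and 93.6% of the UMIs in 10 cells. That ratio turned to 0.637 with each cell weighed the same. In all T both passed 1.5-fold, 2 of 5 members, against 18.8% of genes. Cxcl16 in all T was 35.1 and 35.5 CPM (ratio 1.01 [0.702 to 1.45]). In NK cells Cxcl9 was 32.1 and 45.1 CPM (ratio 1.40 [1.09 to 1.81]), Cxcl10 39.4 and 60.7 CPM (ratio 1.54 [1.23 to 1.93]) and Cxcl16 14.8 and 27.9 CPM (ratio 1.88 [1.32 to 2.72]), with 2 of 5 members past 1.5-fold against 15.5% of genes. The NK ratios of Cxcl10 and Cxcl16 turned to 0.738 and 0.766 with mixed barcodes counted in. In cells with T and NK markers together, Cxcl9 was 29.1 and 24.4 CPM, Cxcl10 43.7 and 22.5 CPM and Cxcl16 14.6 and 27.3 CPM, from 13 to 39 UMIs per library. In NK cells, 8 myeloid genes (listed below) stood at 2.23% to 6.46% of their macrophage level in WT and 2.91% to 5.54% in CD94-KO. Cxcl9, Cxcl10 and Cxcl16 stood there at 3.17%, 6.09% and 3.82% in WT and 4.01%, 10.3% and 7.27% in CD94-KO. In unassigned T cells the myeloid genes stood at 7.87% to 15.6% and 6.25% to 17.3%. The part of macrophage RNA in these ligand values was not tested.

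Most T cell Cxcl10 came from the IL-17 type gate, T cells with a UMI of Cd163l1 or Il17a, genes of interleukin-17 producing gamma delta T cells, and none of Cd4, Cd8a, Cd8b1 or Foxp3. This gate held 60 WT and 112 CD94-KO cells, 17.8% and 40.0% of all T. Cxcl10 there was 842 CPM in WT and 821 CPM in CD94-KO (ratio 0.974 [0.840 to 1.13], with 24.0% of genes past 1.5-fold in this gate), which was 130% and 140% of the macrophage level of the same library. The 8 myeloid genes Lyz2, C1qa, C1qb, C1qc, Apoe, Cd68, Ctss and Csf1r stood at 3.17% to 8.05% of their macrophage level in the WT gate and at 2.91% to 9.86% in CD94-KO, Cxcl9 at 5.06% and 9.74%. A Cxcl10 UMI was in 45.0% and 41.1% of these cells (medians of 5433 and 5241 UMIs), against 20.2% and 21.9% of NK cells. With cells that had any Cd68, C1qa, C1qb or C1qc UMI left out, Cxcl10 was 739 CPM in 29 WT cells and 579 CPM in 73 CD94-KO cells. The cells with such a UMI had 948 CPM (31 cells) and 1213 CPM (39 cells), the latter with 278 of the 494 Cxcl10 UMIs of the CD94-KO gate. Cxcl9 in the IL-17 type gate was 51.3 and 110 CPM (ratio 2.14 [1.24 to 3.88]) and Cxcl16 27.2 and 34.9 CPM. The Cxcl10 UMIs of this gate were concentrated, with 87.5% and 83.0% in 10 cells. In the remaining T subsets Cxcl10 was lower: 97.4 and 102 CPM in CD8 T, 25.1 and 168 CPM in CD4 conventional T, 112 and 230 CPM in Treg and 180 and 516 CPM in unassigned T cells. The CD4 values rest on 9 and 42 UMIs, with 23 of the latter in 1 cell. The 8 myeloid genes stood at 5.48% to 15.9% of their macrophage level in the WT CD4 gate and 5.38% to 22.0% in CD94-KO. Their part in the CD4 values was not tested. Averaged at the WT proportions of T subsets, the all T ratio of Cxcl10 was 1.57 in place of 2.19, and at the CD94-KO proportions 1.27.

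Cxcr6 was the main receptor of the pair in T cells by detection, and it was higher over all CD94-KO T cells. In all T it was 394 CPM in WT and 566 CPM in CD94-KO (ratio 1.44 [1.31 to 1.58]), within 1.5-fold. A UMI was in 47.8% and 65.4% of T cells at medians of 5625 and 5057 UMIs, against 1.79% and 1.28% of macrophages, which had 1.77 and 1.81 CPM (17 and 34 UMIs). With T cells thinned to 1000 UMIs (30 and 3 left out) the shares were 27.7% and 32.9%. IL-17 type T cells had the highest level in both libraries, 948 CPM in WT and 874 CPM in CD94-KO (ratio 0.922 [0.800 to 1.06]), with a UMI in 91.7% and 90.2% of cells. They held 20.3% of all Cxcr6 UMIs in WT and 35.5% in CD94-KO. At the WT proportions of T subsets the CD94-KO level of Cxcr6 was 447 CPM (ratio 1.13), and at the CD94-KO proportions the ratio was 1.02. IL-17 type cells held 15.7% of T cell UMIs in WT and 38.1% in CD94-KO, CD8 T 24.3% and 13.0% and Treg 17.0% and 9.64%. Which of these shares went with the difference over all T was not tested. The all T ratio was 1.05 with gates on cells thinned to 1000 UMIs and 1.23 without cells that had a Cd68 or C1q UMI.

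The other T subsets differed from this, on few cells. CD4 conventional T cells, next in order, had 695 CPM in WT and 544 CPM in CD94-KO (ratio 0.783 [0.630 to 0.969]). CD8 T cells had 261 CPM in 55 WT cells and 360 CPM in 32 CD94-KO cells (ratio 1.38 [1.02 to 1.84]). Treg cells had 134 and 302 CPM in 53 and 27 cells, with 95.8% and 97.8% of the UMIs in 10 cells. Unassigned T cells had 157 and 301 CPM (ratio 1.92 [1.44 to 2.58]), where 25.2% of genes passed 1.5-fold. Cells with T and NK markers together went the other way, at 187 CPM in WT and 91.8 CPM in CD94-KO (ratio 0.491 [0.377 to 0.636], 21.8% of genes past 1.5-fold). That ratio was 0.910 with mixed barcodes counted in. NK cells were low in both libraries, at 17.3 and 12.1 CPM (ratio 0.697 [0.459 to 1.05]), with 55 and 45 UMIs of which 10 cells held 61.8% and 86.7%. The interval of that ratio includes 1. A UMI was in 7.53% [5.06 to 10.7] of WT and 3.22% [1.85 to 5.18] of CD94-KO NK cells, against 1.79% and 1.28% of macrophages. With NK cells thinned to equal depth the shares were 1.10% [0.302 to 2.80] and 0.609% [0.126 to 1.77], with overlapping intervals. NK cells with a Cxcr6 UMI had more UMIs than those without (medians of 10771 against 6483 in WT and 14642 against 5731 in CD94-KO). The NK ratio of Cxcr6 was 0.434 with gates on cells thinned to 3000 UMIs and 0.399 with each cell weighed the same.

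Over all T and over NK cells no Cxcr3 difference was detectable, but CD8 T cells differed past the counting interval on few cells. In all T it was 46.9 CPM in WT and 46.3 CPM in CD94-KO (ratio 0.986 [0.718 to 1.35]), from 99 and 73 UMIs. NK cells had 15.4 and 16.4 CPM (ratio 1.06 [0.716 to 1.58]) and cells with T and NK markers 25.8 and 26.4 CPM (ratio 1.02 [0.565 to 1.87]). The intervals leave room for a difference of over 1.3-fold either way in T cells. At the WT proportions of T subsets the CD94-KO level was 68.3 CPM (ratio 1.46, above that interval), and at the CD94-KO proportions the ratio was 1.11. A UMI was in 18.1% and 15.4% of T cells and in 10.5% and 10.9% of NK cells, against 0.561% and 0.388% of macrophages (5 and 7 UMIs). The dendritic gates had almost no receptor UMIs: in WT and CD94-KO, cDC2 had 1 and 0 of Cxcr3 and 1 and 1 of Cxcr6, and mregDC had 1 and 0 of Cxcr3 and 2 and 4 of Cxcr6. By subset, Cxcr3 was 67.1 and 85.5 CPM in Treg, 25.1 and 36.0 CPM in CD4 conventional T and 56.5 and 35.3 CPM in unassigned T cells, with overlapping intervals in each. CD8 T cells had 25 UMIs in 55 WT cells and 31 UMIs in 32 CD94-KO cells, 48.7 and 151 CPM (ratio 3.09 [1.77 to 5.47]). A UMI was in 25.5% [14.7 to 39.0] and 46.9% [29.1 to 65.3] of these cells, and 10 cells held 84.0% and 83.9% of the UMIs. The alternatives did not include the CD8 T gate, and the share of all genes past 1.5-fold was not measured in it. IL-17 type T cells, the highest gate for Cxcr6, were the lowest T gate for Cxcr3 in CD94-KO, at 30.2 and 11.6 CPM from 10 and 7 UMIs. Cxcr3 was seen in 14.3% of WT T cells with a Cxcr6 UMI and in 21.6% of those without, and in 11.5% and 22.7% in CD94-KO. The intervals of these shares overlapped in each library. The T cells with Cxcr6 had more UMIs (medians of 6187 against 4560.5 and 5637 against 4284). In NK cells the order was the other way, at 35.7% with and 8.43% without in WT and 18.8% and 10.6% in CD94-KO. There too the cells with Cxcr6 had more UMIs. In CD8 T, IL-17 type T and cells with T and NK markers the order differed between WT and CD94-KO, with overlapping intervals. The part of the subset mix in the all T shares was not tested.

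**Figure D5:**
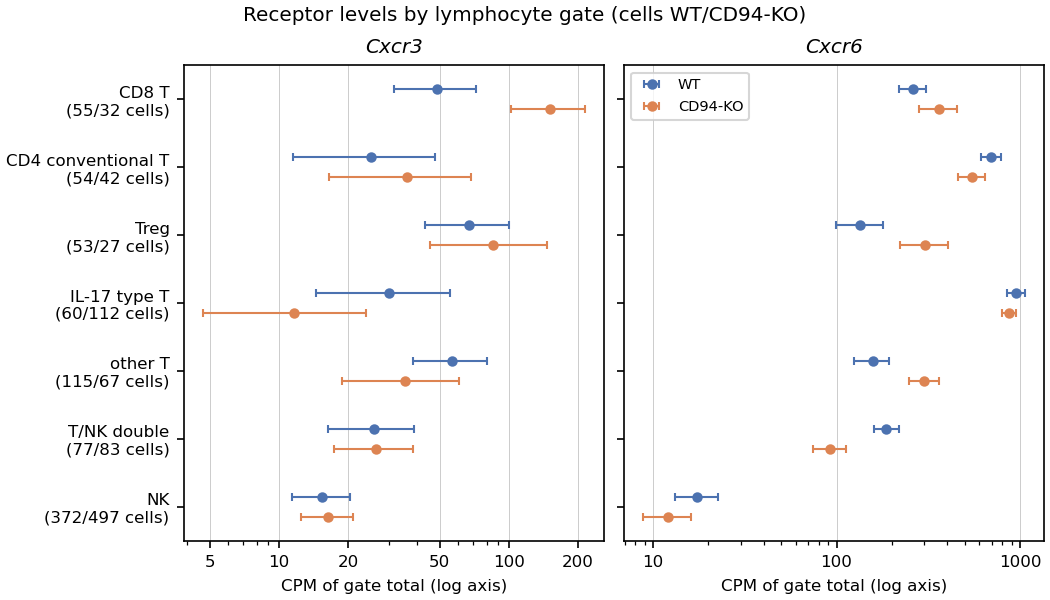
Cxcr3 and Cxcr6 (horizontal log axis, CPM of the gate total, points with 95% Poisson intervals) in 5 T subsets, cells with T and NK markers, and NK cells, with WT and CD94-KO cell numbers. Cxcr6 is highest in IL-17 type T cells (948 and 874 CPM), and most Cxcr3 intervals overlap between libraries, with CD8 T apart (48.7 and 151 CPM).

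Genes that act upstream of the CXCR3 ligands were described from a list of 18 (interferon gamma and its receptor, JAK and STAT genes, interferon regulatory factors, NF-kB genes and co-inducing cytokines). In macrophages 2 of 17 measured genes were at least 1.5-fold higher in CD94-KO and 0 lower, against 4.31% and 5.38% of all genes. The median difference in log2(CPM + 5) was 0.17 over the list and 0.00 over all genes. Socs1, an inhibitor that interferon itself induces, was 32.7 CPM in WT and 62.5 CPM in CD94-KO (ratio 1.91 [1.69 to 2.17]). Ifng, the other gene, was 2.50 and 5.38 CPM from 24 and 101 UMIs, against 139 and 358 CPM in NK cells. The part of NK cell RNA in these macrophage counts was not tested. Irf1 was 208 and 254 CPM (ratio 1.22 [1.16 to 1.29]) and Ifngr1 215 and 216 CPM, both within 1.5-fold.

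In NK cells 6 of 15 measured genes of that list were higher and 0 lower, against 11.9% and 3.62% of all genes, with a median of 0.39 over the list and 0.10 over all genes. Ifng itself, the cytokine that induces the CXCR3 ligands, was 139 CPM in WT NK cells and 358 CPM in CD94-KO (ratio 2.58 [2.31 to 2.88]). Ifngr2, with under 100 UMIs, was the sixth. Jak2 was 37.8 and 67.4 CPM, Irf9 18.3 and 34.6 CPM, Nfkbiz 114 and 185 CPM and Socs1 24.9 and 38.4 CPM. Irf1 was 105 and 132 CPM, within 1.5-fold. In all T 2 of 15 were higher and 0 lower, against 10.6% and 8.17%, with a median of 0.31 and 0.03 over all genes: Ifngr2, a chain of the interferon gamma receptor, was 28.4 and 65.9 CPM and Tnf 26.6 and 60.8 CPM. T cell Ifng was 193 CPM in WT and 171 CPM in CD94-KO (ratio 0.885 [0.756 to 1.03]).

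Genes that process or remove the ligands were nearly level in macrophages. Adam10 was 98.0 and 99.0 CPM, Adam17 90.8 and 96.0 CPM, and Dpp4, a peptidase that trims CXCR3 ligands, 3.96 and 4.20 CPM. Of this list, 0 of 6 measured were higher and 1 (Timp3) lower in macrophages (4.31% and 5.38% of all genes), 1 of 4 was higher in all T (10.6%) and 0 of 3 in NK cells (11.9%). The T cell gene was Furin, a proprotein convertase, at 183 and 303 CPM (ratio 1.66 [1.44 to 1.90]). Of receptor signalling and transcription regulators, 0 of 16 measured passed 1.5-fold in macrophages (9.69% of all genes), 2 of 15 were higher in all T (10.6%) and 1 of 16 in NK cells (11.9%). In T cells these were Prdm1 (37.0 and 74.2 CPM), a regulator of effector and resident T cells, and Arrb1 (26.1 and 52.0 CPM), an arrestin of G protein coupled receptors. In NK cells it was Eomes, at 197 and 310 CPM (ratio 1.58 [1.43 to 1.74]). Tbx21, the T-bet gene that is known to drive Cxcr3, was 25.6 and 20.3 CPM in all T (ratio 0.792 [0.495 to 1.25]) and 60.2 and 85.4 CPM in NK cells (ratio 1.42 [1.18 to 1.71]). Among other lymphocyte chemokine receptors, 2 of 9 were higher in all T (10.6% of all genes) and 5 of 8 in NK cells (11.9%) with 0 lower. In macrophages 1 of 9 was higher (Xcr1) and 1 lower (Ccr9), against 4.31% and 5.38% of all genes. Beyond those described next, the genes were Ccr4 in T cells and Ccr7, Cx3cr1 and S1pr5 in NK cells, all under 100 UMIs and named after their values were seen because the counts are small. The intervals of the ratio included 1 for Timp3, Xcr1 and Ccr9 in macrophages and for Ifngr2, Ccr7 and Cx3cr1 in NK cells. Cxcr4, the CXCL12 receptor, was 62.6 and 125 CPM in T cells and 80.7 and 144 CPM in NK cells, and S1pr1, an egress receptor, 24.6 and 42.9 CPM in NK cells.

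The genes whose levels ran most like each member were ranked by Pearson's r of log2(CPM + 5) over 20 sums, 10 gates in each of 2 libraries, among 8740 genes. The sums share libraries and depth, so r is a description. Next to Cxcl9 stood Rasa4 (r = 0.978), P2rx4 (0.976), Nampt (0.970), Tnfaip2 (0.970) and Cdkn1a (0.969). Cxcl10 was followed by Samhd1 (0.971), Pim1 (0.955), Irgm1 (0.934), Ifi27l2a (0.932) and Stat2 (0.928), and Cxcl16 by Basp1 (0.979), Mvp (0.974), Clic4 (0.974), Cyfip1 (0.962) and Rasa4 (0.962). For Cxcr6 these were Lat (0.985), Sv2c (0.980), Camk4 (0.973), Bcl11b (0.972) and Sdf4 (0.966). Cxcr3 had too few UMIs for the ranking. Of the member pairs, Cxcl9 ran with Cxcl16 at r = 0.945 and with Cxcl10 at 0.828, and Cxcr3 with Cxcr6 at 0.946.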

How the data were processed

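The authors deposited raw UMI counts per gene and barcode, which per the file headers came from Cell Ranger 5.0.0; the submitters' processing notes name mm10 and Seurat 4.0. The values are counts without normalization, and barcodes not called as cells had been removed, per the labels' protocols. The annotation release is not named in the labels or headers. Barcodes were kept with at least 500 UMIs, 300 genes and under 10% mitochondrial UMIs, which left 4571 of 5358 WT and 4765 of 5175 CD94-KO barcodes. Scrublet (scanpy 1.11.5) called 3 and 3 doublets by itself and had not worked, so the 4% with the highest scores were removed, 183 and 191. Gates used raw UMI minimums: T 2 (Cd3e, Cd3d, Cd3g), NK 2 (Ncr1, Klrb1c, Klra8, Klre1), monocyte/macrophage 3 (Adgre1, Fcgr1, Ms4a7 and 1 further gene), mregDC 3 (Ccr7, Fscn1) and cDC2 2 (Cd209a, Flt3).

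UMIs were summed per library and gate and given as CPM, with exact Poisson intervals for sums, exact conditional binomial intervals for ratios (CD94-KO over WT) and Clopper-Pearson intervals for shares of cells, at 95%. UMIs cluster in few cells, so real error is larger. With 1 library per genotype no test was run; a fold of 1.5 marks size, for genes with at least 20 UMIs over both libraries. The ratio computation was checked on simulated counts. The members, gates and gene lists were chosen with earlier results of these data known. That macrophage marker and 1 gene of the interferon gamma list, which the counts include, are not reported here. Members were given in gates of at least 50 cells in both libraries and in some smaller subsets; receptors, at 0 to 14 UMIs per macrophage state and library, were left out of the states. List genes were named with at least 100 UMIs and 1.5-fold in the macrophage, T or NK gate, beside Ifng, Irf1, Ifngr1, Adam10, Adam17, Dpp4, Tbx21 and Klrd1; 5 similar genes were named for members of at least 500 UMIs. Alternatives were scaling (TMM from edgeR 4.0.16, and median-of-ratios size factors), doublet and depth filters, gate minimums, thinned gating, cell weighting and mixed barcodes.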

Additional observations from a re-analysis of the deposited data

Results flagged for a closer look

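For 4 members the genotype ratio (CD94-KO over WT) went at least 1.5-fold in opposite directions in related gates, and the difference between those gates was not tested. In macrophage states Cxcl9 had a ratio of 2.22 in Nos2+ Arg1+ cells and 0.576 in Nos2- Arg1+ cells, and Cxcl10 had 1.62 in low cells and 0.662 in Nos2- Arg1+ cells. In lymphocyte gates Cxcr6 had 1.92 in unassigned T cells and 0.491 in cells with T and NK markers. The ligands differed there too at low levels, with Cxcl10 at 2.86 and 0.514 and Cxcl16 at 1.88 in the double-marker cells and 0.638 in unassigned T cells. Mixed barcodes, which the reported gates leave out and only an alternative counts in, had 498 CPM of Cxcl9 in WT and 771 CPM in CD94-KO, a ratio of 1.55.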

How the results depend on the processing

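No paired analysis was possible because each genotype had 1 library. Of the alternative values of the 8 comparisons fixed for this work, 51 stayed inside the counting interval of the reported ratio, 24 left it and 2 turned a ratio that had passed 1.5-fold to the other side of 1. By the 1.5-fold mark (higher, lower or within), 16 of these values, the 2 among them, fell in another class than the reported ratio. TMM and median-of-ratios scaling moved the median gene by at most 0.13 (log2, NK cells) and left all 8 inside it, as did keeping high doublet scores and a minimum of 1000 UMIs. All ratios are CD94-KO over WT, and the cause of each change was not tested.

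In the whole macrophage gate, Cxcl9 was 1.18 with gate minimums doubled, 1.07 and 1.17 with gates on cells thinned to 1000 and 3000 UMIs and 1.20 with mixed barcodes counted in. Cxcl10 was 0.856 with doubled minimums, 1.11 with gates at 1000 UMIs and 1.03 with mixed barcodes, so its direction over the gate is not settled, and Cxcl16 was 0.768 and 1.03 in the last pair. In Nos2+ Arg1- cells, Cxcl9 was 0.727 with doubled minimums, 0.274 and 0.887 with gates at 1000 (4 WT and 11 CD94-KO cells) and 3000 UMIs, 0.922 with mixed barcodes, 0.770 with state minimums per 10000 UMIs and 0.706 with lower state minimums. Cxcl10 there was 0.358 with gates at 1000 UMIs, 0.405 with each cell weighed the same, 0.666 with mixed barcodes and 0.617 per 10000 UMIs, and turned to 1.5 with gates at 3000 UMIs and to 1.46 with lower state minimums. Cxcr6 in NK cells was 0.111 and 0.434 with gates at 1000 and 3000 UMIs and 0.399 with each cell weighed the same. Cxcr6 in all T was 1.05 with gates at 1000 UMIs and 1.23 without cells with a Cd68 or C1q UMI. Cxcr3 in all T stayed inside its interval in these alternatives, but averaging the T subsets in the WT proportions gave 1.46, above it. The CD8 T, CD4 conventional T and Treg gates were not run under the alternatives.

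Among the other 48 results, 92 values fell in another class by the 1.5-fold mark. Of these, 23 values turned a ratio past 1.5-fold to the other side of 1. With gates at 1000 UMIs the turned ratios were Cxcl10 in NK cells (0.449) and Cxcl10 (0.683), Cxcl16 (1.45) and Cxcr6 (0.986) in unassigned T cells. Gates at 3000 UMIs turned Cxcl9 in Nos2- Arg1+ cells (1.43), all T (0.633) and unassigned T cells (0.427), Cxcl10 in NK cells (0.748) and Cxcl16 in NK (0.580) and double-marker cells (0.227). Doubled minimums turned Cxcl9 in Nos2- Arg1+ cells (1.04), Cxcl10 in double-marker (1.04) and low cells (0.928) and Cxcl16 in unassigned T cells (1.05). Mixed barcodes turned Cxcl10 in NK cells (0.738) and mregDC (0.855), Cxcl16 in NK (0.766) and double-marker cells (0.483), and Cxcl9 (0.782) and Cxcr3 (1.18) in unassigned T cells. Equal cell weights turned Cxcl9 in all T (0.750) and unassigned T cells (0.637) and Cxcl16 in double-marker cells (0.822). Without a minimum of UMIs, 17.9% of genes in place of 9.69% passed 1.5-fold in macrophages. The 3 alternatives of gating at 3000 UMIs, lower state minimums and leaving out Cd68 or C1q cells were chosen after seeing the data.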

Other observations

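In the neutrophil gate, with 5 WT and 23 CD94-KO cells, Cxcl10 was at 16 UMIs in WT and 86 in CD94-KO. In the pDC gate, with 48 and 39 cells, Cxcr3 was 16.3 CPM in WT and 17.3 CPM in CD94-KO, close to the NK values, and a UMI was in 12.5% and 12.8% of cells, against 0.561% and 0.388% of macrophages at a similar depth (medians of 10894 and 10679 UMIs in pDC and of 9994.5 and 9753 in macrophages). In the stromal gate, with 19 and 18 cells at medians of 38938 and 35483 UMIs, Cxcl10 was 167 and 264 CPM, and Cxcr3 and Cxcr6 had 0 UMIs in both libraries.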
